A study of Drosophila melanogaster with 18 samples.

Results

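The 8 h around pupariation were followed in EcRi animals, Drosophila melanogaster bearing the transgene hs-EcRi-11, from which heat brings about double-stranded RNA of the region common to all forms of the ecdysone receptor gene EcR. The comparison used 6 of the 18 arrays of the series, the 3 arrays of EcRi prepupae at 4 h against the 3 arrays of EcRi larvae of the last instar at -4 h, with time counted from puparium formation. The strain and time labels, and no measured value, assign arrays to the comparison, and the question was what still changes over these 8 h when EcR function is reduced. EcRi animals had been heated to 37 °C for 1 h at 24 h and again at 18 h before pupariation. Control animals were of the w1118 strain and were collected at the same times, and the sources used here do not say whether they were also heated. The other arrays were 6 of controls at -4 and 4 h, 3 of EcRi and 3 of controls at 0 h. RNA came from 10 whole animals per sample, and the 3 collections of each group were independent. Because the transgene is driven by a heat-shock promoter in all tissues of 1 line, and because -4 h animals were nearer to the heating than 4 h animals, developmental time and time since heating cannot be told apart in this strain. In whole animals, fewer cells of a type and less RNA per cell cannot be told apart either.

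Moulting and metamorphosis in flies are timed by ecdysone, whose active form binds EcR, a nuclear receptor that needs Ultraspiracle as its partner on DNA. When the hormone rises in the full-grown larva, the animal stops wandering and its cuticle hardens into a case, the salivary gland expels its glue, and the larval gut begins to break down. The receptor induces early genes that encode transcription factors, among them br and Sox14, and these in turn control later sets such as the L71 genes of the salivary gland.

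Intensities are linear values per probe set, a group of oligonucleotides for 1 transcript, and log2 changes were taken after raising values below 91.6, the 20th percentile of all values, to that floor. A probe set was called when limma gave a Benjamini-Hochberg adjusted p under 0.10 over all 13966 probe sets and a change of at least 1.5-fold. Array medians lay between 221.6 and 247.6. EcRi 4 h replicates 1, 2 and 3 were less alike (lowest correlation within the group 0.944 over all probe sets) than the 3 arrays at -4 h (0.992). Outside the 6 arrays, control -4 h replicate 1 and EcRi 0 h replicate 1 stood apart, with no correlation to any other array above 0.940. Their lowest correlations within their own groups were 0.915 and 0.820, so the EcRi means at 0 h include an array unlike its group. The brighter EcR probe set read 557, 573 and 557 at -4 h and 509.6, 533 and 520.0 at 4 h in EcRi animals (log2 change -0.11 ± 0.09 SE, not called), and 533, 521 and 547 at -4 h in controls. The dimmer one read 191, 218 and 207 at -4 h and 215, 192 and 215 at 4 h in EcRi animals, where it was not called, and fell in controls from 251, 303 and 324 to 156, 161 and 167 (-0.85 ± 0.13). At -4 h the brighter probe set was thus not lower in EcRi animals than in controls, while the dimmer one was lower on each EcRi array than on each control array. The sources used here do not say where these probes lie relative to the double-stranded RNA. The study reports that every EcRi animal arrested as an elongated prepupa, which it reads as an effective block of the hormone signal. For EcR protein it points to earlier work, in which the level was strongly lowered.

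Over 8 h 356 probe sets were called in EcRi animals (2.55% of those tested), 135 higher at 4 h (0.967%) and 221 lower (1.58%). In controls 1185 were called over the same interval (8.48%), 590 higher (4.22%) and 595 lower (4.26%). The 3 arrays of 4 h all lay beyond the 3 of -4 h for 3499 probe sets in EcRi animals (25.1%), so that separation alone was common. Changes past 4-fold were called for 28 rises and 14 falls in EcRi animals and for 230 probe sets in controls. The size of the 8 h change differed between the strains for 882 probe sets (6.32%), tested as the interaction of strain and time, with 386 changes higher (2.76%) and 496 lower (3.55%) in EcRi animals. When the array medians were aligned that split was 408 and 809.

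Of the 356 EcRi calls, 192 were also called in the same direction in controls, 77 higher and 115 lower, which is 53.9% of the EcRi calls and 16.2% of the control calls. For 131 of the 192 the interaction had an adjusted p above 0.10, and for 61 it was called. An adjusted p above that limit does not show that the strains changed alike, so differences are given with their SE. Another 159 EcRi calls were not called in controls, and for 68 of these the interaction was called. Another 5 probe sets were called in opposite directions, a count that was 1 without EcRi -4 h replicate 2 and 53 without EcRi 4 h replicate 2. On the other side, 988 probe sets were called in controls and not in EcRi animals, and for 536 of them the interaction was called, 290 higher and 246 lower in controls.

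**Figure D1:**
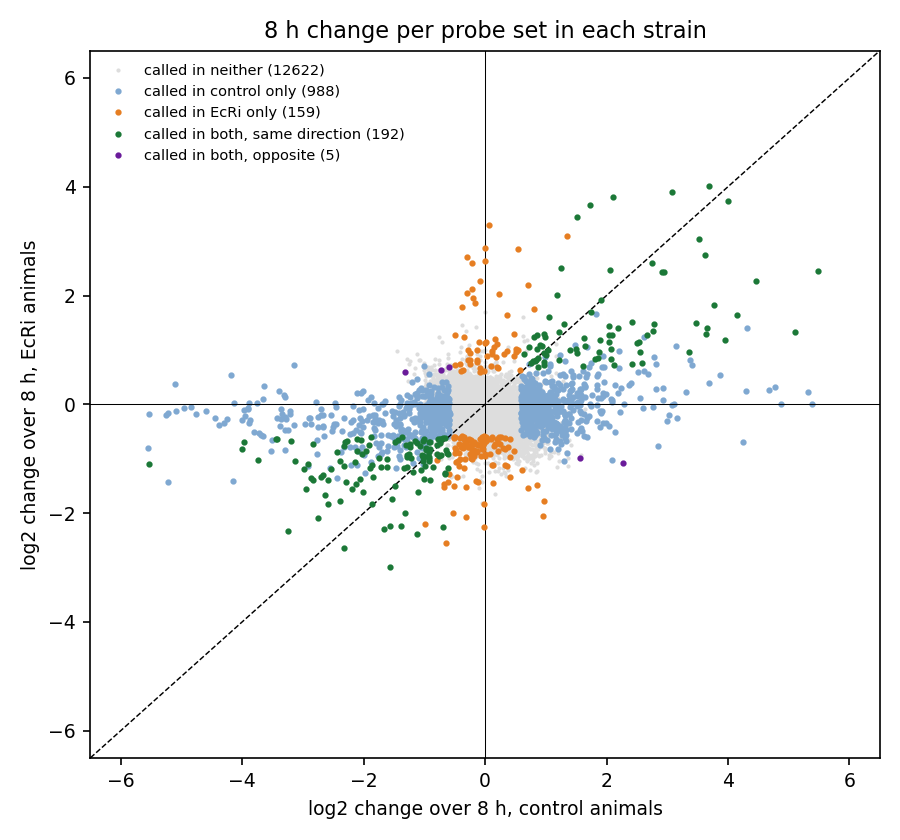
Log2 change over 8 h for each of 13966 probe sets, in control animals on the horizontal axis and in EcRi animals on the vertical axis, coloured by where the change was called; the dashed line marks equal change. The 988 probe sets called in controls alone spread along the horizontal axis, the 159 called in EcRi animals alone along the vertical axis, and the 192 called the same way in both lie in the upper right and lower left.

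The 4 largest rises in EcRi animals were of Osi7, Osi15, dy and Osi6, genes of cells that make cuticle. Osiris genes encode insect transmembrane proteins made by cells that secrete cuticle. Of 23 measured Osiris genes 9 rose in EcRi animals and none fell, where 1.04% of all 10843 genes measured rose, 1.81% fell and 2.85% were called in either direction. The median log2 change of the family was 0.45, against 0.00 over all genes. In controls 5 rose and none fell, with a median of 0.01, where 4.3% of all genes rose, 4.74% fell and 9.04% were called in all.

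Osi7 read 327, 383 and 397 at -4 h and 4926, 7417 and 5794 at 4 h in EcRi animals, a 16.2-fold rise (log2 4.02 ± 0.30 SE, limma adjusted p = 6.1e-05). The groups did not overlap, which the rule for naming the gene required, and all 3 arrays of 4 h were high. In controls Osi7 rose from 309, 237 and 247 to 3359, 2806 and 4062 (3.68 ± 0.30), and the difference between the strains, 0.34 ± 0.43, was not called. Osi15 rose from 126, 132 and 134 to 1763, 2309 and 1812 in EcRi animals, 14.9-fold (3.89 ± 0.28, adjusted p = 6.1e-05), and by 3.08 ± 0.28 in controls. Again the groups lay far apart, and the strain difference of 0.81 ± 0.40 was not called.

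Osi6 rose more in EcRi animals than in controls. It read 504, 571 and 679.6 at -4 h and 7291, 8730.0 and 6213 at 4 h in EcRi animals (3.66 ± 0.31, adjusted p = 9.3e-05), against 759, 384 and 327 and then 1608, 1173 and 1869 in controls (1.74 ± 0.31). The difference between these changes was 1.92 ± 0.44 (adjusted p = 0.027), and the 4 h arrays of the strains did not overlap. Osi14 also differed between the strains, with a rise of 0.94 ± 0.18 in EcRi animals and a value of -0.25 ± 0.18, not called, in controls. Osi20, Osi24, Osi9 and Osi17 rose by 1.00 to 1.23, and of these Osi20 and Osi24 were also called in controls. Osi2 rested on 1 array more than the others: it read 124, 128 and 121 at -4 h and 355, 1359.5 and 275 at 4 h (2.03 ± 0.42, adjusted p = 0.022). It kept its call without that array, and in a fit to the 6 EcRi arrays alone it was not called.

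Proteins of the apical extracellular matrix with a zona pellucida domain shape the cuticle surface. Of 11 measured genes on the list used for them 2 rose and 2 fell, against 1.04% and 1.81% of all genes. The 11 include trn, which does not encode such a protein and was not called. The gene dy, needed for the shape of wing cells, rose 13.3-fold from 97.0, 100.5 and 111 to 824, 2050.2 and 1491 (3.73 ± 0.34, adjusted p = 0.00012). The arrays of 4 h were spread over a wide range, yet all lay far above those of -4 h. Controls rose by 4.00 ± 0.34, and the difference, -0.27 ± 0.48, was not called. Its relative dyl rose by 0.92 ± 0.18 in EcRi animals and had a value of 0.11 ± 0.18 in controls, a difference of 0.82 ± 0.25 that was called (adjusted p = 0.092). The genes zye (-1.15 ± 0.15) and pio (-1.33 ± 0.30) fell in EcRi animals, and zye fell in controls too (-1.28 ± 0.15). The family count without EcRi 4 h replicates 1 and 3 and the 2 arrays that stand apart was 5 higher and 2 lower.

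Other large rises that the strains shared, with no interaction called, were CG14107 (3.03 ± 0.41), CG4702 (2.75 ± 0.31), flz, which encodes a serine protease (2.59 ± 0.42), CG6026 (2.48 ± 0.21) and the mucin-related gene Mur89F (2.44 ± 0.30). CG6026 is the tightest of these: it read 216, 239 and 256 at -4 h and 1108, 1486 and 1383 at 4 h. CG14107 read 175, 175 and 182 and then 1098, 2425 and 1148, so that replicate 2 was the highest array at 4 h. For CG3355 the strains shared the direction and not the size: EcRi animals went from 870.0, 1068 and 1233 to 4031, 6517 and 7212 (2.46 ± 0.32), and controls from 308, 299.9 and 303 to 13250.3, 13502 and 13937 (5.48 ± 0.32). At -4 h EcRi animals were the higher strain for this gene and at 4 h the lower one, and the difference of the changes was -3.02 ± 0.46 (adjusted p = 0.0016). CG4115 (3.44 ± 0.40) and CG7755 (2.50 ± 0.23) rose more in EcRi animals than in controls, by 1.92 ± 0.56 and 1.24 ± 0.32.

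**Figure D2:**
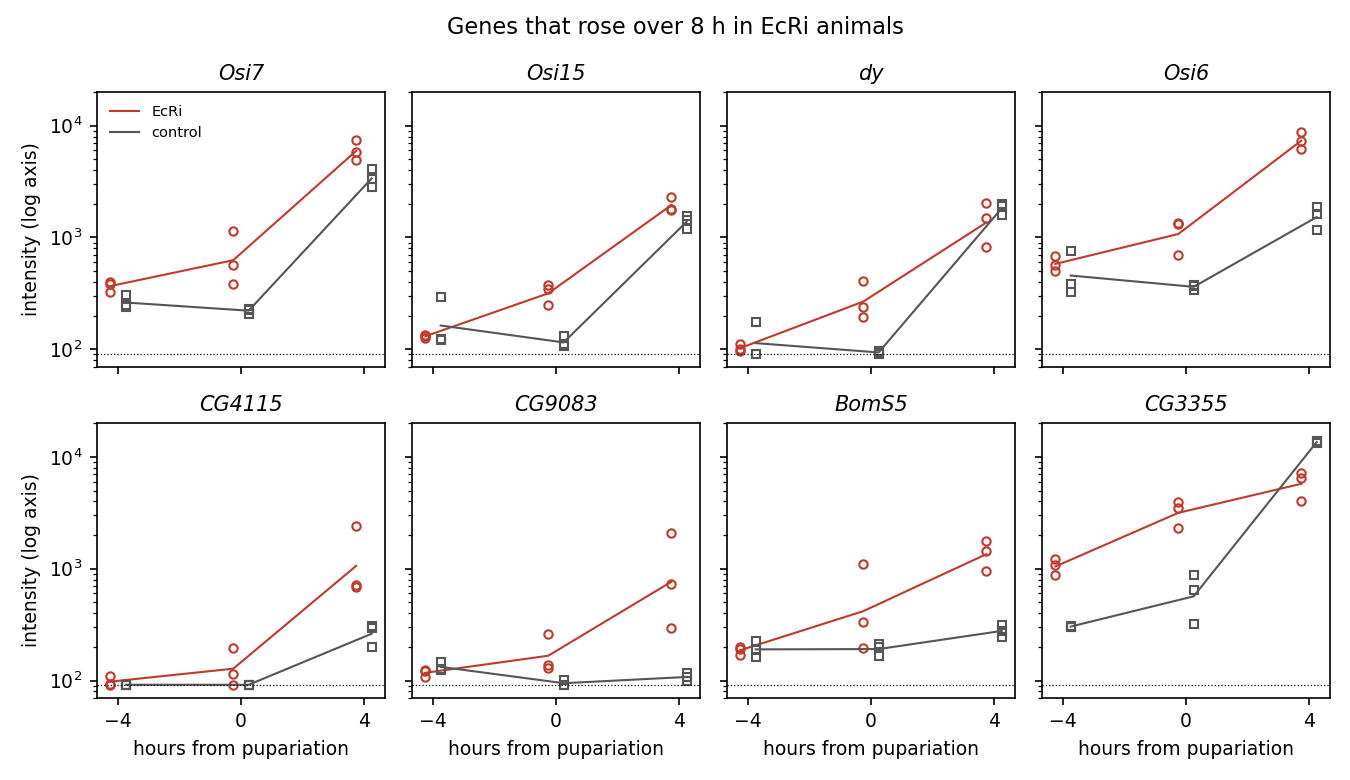
Intensity (log axis) of 8 genes at -4, 0 and 4 h from pupariation, in EcRi animals (red circles) and controls (grey squares), 1 point per array, with lines through the means of the log2 values; the dotted line is the floor of 91.6. Osi7, Osi15 and dy rise in both strains, Osi6, CG4115, CG9083 and BomS5 are higher in EcRi animals at 4 h, and CG3355 is higher in controls at 4 h.

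Among rises with a called interaction that controls did not share, the largest was BomS5, which encodes a short secreted immune peptide of the Bomanin family. It read 170.2, 192 and 199 at -4 h and 1768, 1439 and 961 at 4 h in EcRi animals, 7.22-fold (2.85 ± 0.46, adjusted p = 0.0047). Controls read 188, 225 and 162 and then 314, 245 and 278, and the difference of the changes was 2.30 ± 0.65 (adjusted p = 0.066). At 0 h EcRi animals read 334, 1109.8 and 196, so that 1 array was already high. Of 9 measured genes for antimicrobial peptides 2 rose and none fell, where 1.04% and 1.81% of all genes did: Def (1.05 ± 0.23) and BomS2, which was under the floor on all 3 arrays at -4 h and read 649, 1666 and 282 at 4 h. None of this list was called without EcRi -4 h replicate 2 or 4 h replicate 1, and BomS5, which rose in each such fit, was not on it.

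CG9083 read 107, 124 and 122 at -4 h and 731, 2076 and 292 at 4 h in EcRi animals (2.70 ± 0.50, adjusted p = 0.013), and stayed between 99.5 and 145 on all 6 control arrays compared. TwdlT, which encodes a cuticle protein of the Tweedle family, went from 311, 329 and 346 to 1390.4, 3569 and 781 (2.26 ± 0.38), and its dimmer probe set rose by 1.05 ± 0.17. CG4998 went from 121, 111 and 118 to 503, 2618 and 262 (2.59 ± 0.60). In these 3 genes replicate 2 was the highest array at 4 h and replicate 3 the lowest, and none of the 3 was called in a fit to the 6 EcRi arrays alone. CG4998 also lost its call when any 1 of the -4 h arrays was left out, as did CG12164, which was not called without 4 h replicate 1 or in the fit to the 6 arrays either. CG15080 (1.86 ± 0.36), CG12164 (1.80 ± 0.43) and CG12964 (1.64 ± 0.24) complete the 8 largest such rises, together with 1 of 2 probe sets of Usp14, a deubiquitinating enzyme. That probe set rose by 2.19 ± 0.28, while the brighter one had a value of -0.61 ± 0.24, not called, so the probe sets of Usp14 disagreed. CG15080 was not called in the fit to the 6 EcRi arrays alone.

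The largest falls in EcRi animals were mostly of genes that also fell in controls, often from a higher starting level. CG14258 read 1636, 2359 and 2021 at -4 h and 242, 285 and 229 at 4 h in EcRi animals, 7.91-fold lower (-2.98 ± 0.44, adjusted p = 0.0030). Controls started at 158, 250.4 and 496 and were below the floor at 4 h, so their change of -1.56 ± 0.44 is cut short by the floor. CG14852 fell from 4146, 3444 and 3440.4 to 437, 720.4 and 639 (-2.64 ± 0.23, adjusted p = 0.00010), and by -2.33 ± 0.23 in controls. Both groups of EcRi arrays were compact, and the difference of -0.31 ± 0.33 was not called.

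Lcp9, which encodes a larval cuticle protein, fell from 1876, 2338 and 2145 to 462, 391 and 493 in EcRi animals (-2.24 ± 0.21, adjusted p = 0.00013). At 4 h it thus stood where controls already were at -4 h, at 503, 285 and 553, and controls went on to 163, 155 and 174 (-1.39 ± 0.21). CG11854 fell from 2732, 3004 and 2469 to 673, 579 and 684 (-2.08 ± 0.30), and CG7294 from 2847, 2727 and 2397 to 575, 565 and 542 (-2.24 ± 0.22). Both fell in controls too, by -2.75 ± 0.30 and -1.57 ± 0.22, with no interaction called. Alp1, which encodes an alkaline phosphatase, fell by -1.84 ± 0.33 in EcRi animals and -1.86 ± 0.33 in controls. Pu, which encodes GTP cyclohydrolase I, the entry enzyme of pteridine synthesis, fell by -2.34 ± 0.37 and -3.25 ± 0.37. These shared falls did not overlap between -4 and 4 h on the EcRi arrays, which the rule for naming them required.

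Acbp5, for an acyl-CoA-binding protein, fell from 1449, 845 and 898 to 217, 226 and 204 in EcRi animals (-2.26 ± 0.23, adjusted p = 0.00024). CG8087 fell from 723, 689 and 622 to 156, 115 and 122 (-2.38 ± 0.23). For both genes the interaction was called, and for both the 3 control arrays at 4 h lay below the floor. The control change is therefore a lower limit in size, and the difference between the strains may be overstated. The same holds for LManIII, a lysosomal mannosidase gene (-1.99 ± 0.30), and for yellow-d2, a gene of the yellow family (-1.83 ± 0.41), which read 1117, 992 and 977 at -4 h in EcRi animals and between 79.3 and 93.0 on all 6 control arrays compared. The call of yellow-d2 was lost without -4 h replicate 1 or 2.

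**Figure D3:**
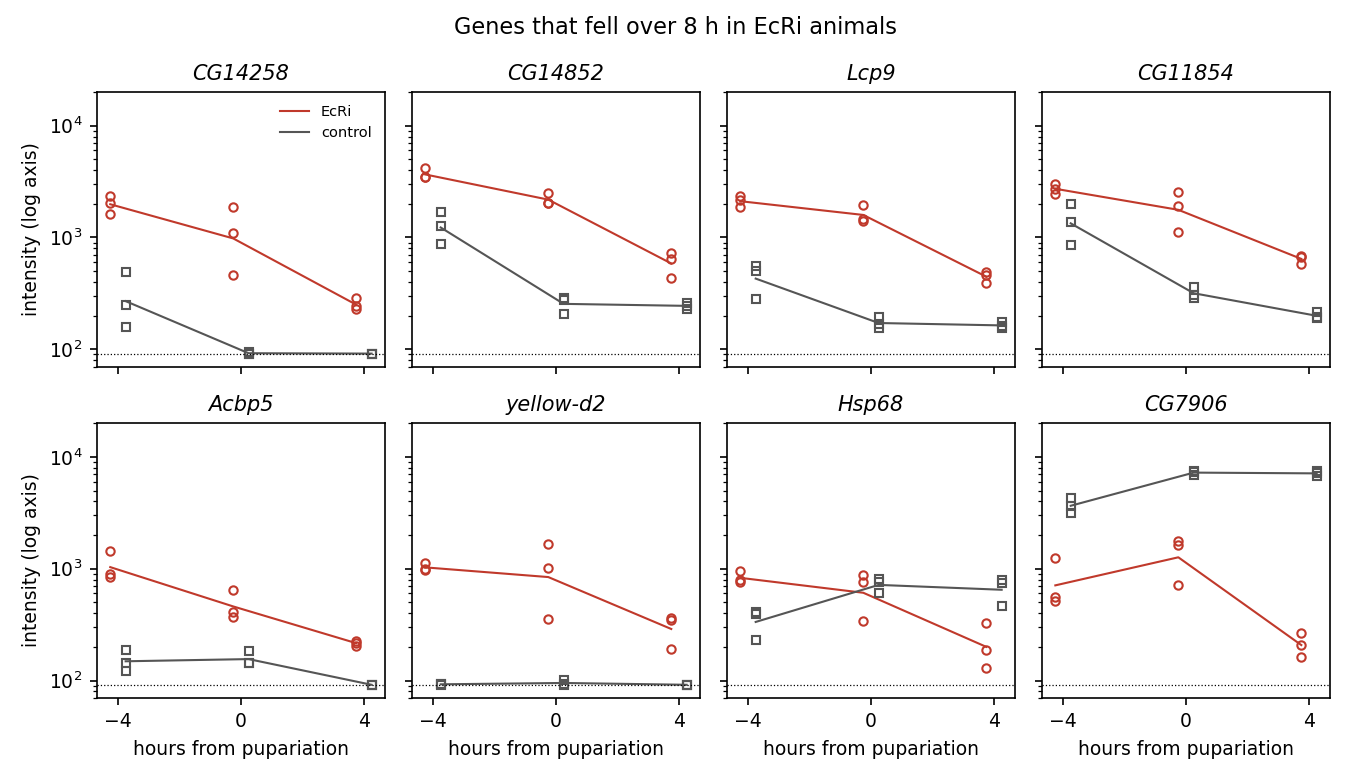
Intensity (log axis) of 8 genes that fell over 8 h in EcRi animals, drawn as in the plot of rises, with EcRi animals as red circles and controls as grey squares. CG14258, CG14852, Lcp9 and CG11854 fall in both strains and start higher in EcRi animals, Acbp5 and yellow-d2 lie at or near the floor in controls at 4 h, and Hsp68 and CG7906 end below controls at 4 h.

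Some falls had no counterpart in controls at levels well above the floor. Hsp68, an inducible member of the Hsp70 chaperone family, read 950.4, 758 and 789 at -4 h and 187, 328 and 130.5 at 4 h in EcRi animals, 4.14-fold lower (-2.05 ± 0.39, adjusted p = 0.015). Controls read 232, 408 and 393 and then 791, 742 and 463 (0.96 ± 0.39, not called), and the difference of -3.01 ± 0.56 was called (adjusted p = 0.0069). CG7906 went from 513, 560.4 and 1241 to 207, 163 and 264 (-1.77 ± 0.36), while controls read 3131 or above on each of the 6 arrays. CG14687 fell from 819, 837 and 1476 to 194, 240.4 and 198 (-2.26 ± 0.34) and had a value of -0.02 ± 0.34 in controls, where it stood between 785 and 1077. CG7296 (-2.08 ± 0.31) and CG31075 (-1.51 ± 0.18) belong to the 8 largest falls with a called interaction and no call in controls, together with 1 of 2 probe sets of CG1607 (-1.54 ± 0.38). The other, brighter probe set of CG1607 read -0.12 ± 0.14 on the log2 scale and was not called, and the call of the dimmer one was lost without any 1 of the -4 h arrays or without 4 h replicate 1.

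Of 7 measured heat-shock genes 3 fell in EcRi animals and none rose, where 1.81% of all genes fell, and their median log2 change was -0.66 against -0.10 in controls. Beside Hsp68 these were Hsp27, from 2795, 2849 and 2879.8 to 1319.6, 1444 and 1649 (-0.96 ± 0.08, adjusted p = 7.4e-05), and l(2)efl, from 7613, 6687 and 6153 to 2702, 2002 and 3185 (-1.39 ± 0.15), both small heat-shock proteins. Hsp27 had a value of -0.19 ± 0.08 in controls, not called, and a difference of -0.77 ± 0.11 that was called. For l(2)efl controls fell further, by -2.59 ± 0.15. Hsp27 was at 4928 or above on the control arrays at -4 h and thus lower in EcRi animals at both times, while l(2)efl was higher in EcRi animals at both. All 3 were called with any 1 array of the series left out. In a fit to the 6 EcRi arrays alone Hsp27 and l(2)efl were called and Hsp68 was not. The heating of EcRi animals cannot be told apart from time here.

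The 5 probe sets called in opposite directions were those of b6, CG13947 and jp, a junctophilin gene, which rose in EcRi animals by 0.60 to 0.69 and fell in controls, and of the chitinase gene Cht4 and the cuticle protein gene Cpr12A. Cht4 read 392.5, 528 and 528 at -4 h and 193, 334 and 178 at 4 h in EcRi animals (-1.08 ± 0.28), and 105, 87.1 and 78.0 and then 426, 503 and 460.2 in controls (2.27 ± 0.28). At -4 h EcRi animals were thus the higher strain and at 4 h controls were. The second probe sets of jp and CG13947 were not called in EcRi animals, and the EcRi call of Cht4 was lost without -4 h replicate 2 or 3 or 4 h replicate 1 or 3. That of Cpr12A was lost without any 1 of the -4 h arrays and without 4 h replicate 1 or 3.

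Glue, L71 and Jonah genes changed far in controls and had values nearer to 0 in EcRi animals, and the interaction was called for 6 of 9, 7 of 9 and 11 of 14 of them. Glue genes encode the salivary proteins that fix the puparium to its support. Of 9 measured glue and intermoult genes 8 fell in controls, with a median log2 change of -3.95, and 2 fell in EcRi animals, with a median of -0.17. The shares of falls over all genes were 4.74% and 1.81%. Sgs3 read 9515, 9579 and 8725 at -4 h and 11681, 11856 and 12651 at 4 h in EcRi animals (0.38 ± 0.13, not called), and fell from 11470.3, 11319.8 and 12235 to 346, 334 and 336 in controls (-5.11 ± 0.13). The difference of 5.49 ± 0.18 was called (adjusted p = 7.2e-10). The 2 that fell in EcRi animals were ng3, from 2863, 3453 and 3366 to 992, 1316 and 1418 (-1.39 ± 0.28), and Pig1 (-1.05 ± 0.18), both intermoult genes of the salivary gland. Both also fell in controls, and for neither was the interaction called.

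The L71 group, here all measured Eig71E genes, includes genes for small secreted peptides of the salivary gland that are induced after the early genes. None of 9 measured was called in EcRi animals (median 0.22, and 4 of the 9 under the floor on all 6 arrays). In controls 6 rose and 1, Eig71Ee, fell (median 3.10), against 4.3% and 4.74% of all genes. The called interactions were lower in EcRi animals for 6 genes and higher for Eig71Ee (3.98), so the group was not of 1 kind. Eig71Ea read 95.8, 111 and 110.4 at -4 h and 119.7, 137 and 124 at 4 h in EcRi animals, against 284, 389 and 260.2 and then 7806, 7828 and 7944 in controls. The EcRi groups were apart by little and lay near the floor, and the difference of the changes was -4.42 ± 0.32 (adjusted p = 1.8e-06).

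Jonah genes encode digestive proteases of the midgut. All 14 measured fell in controls (median -2.90), and 4 fell in EcRi animals (median -0.57, with a value below 0 for each of the 14). Over all genes 4.74% fell in controls and 1.81% in EcRi animals. Jon25Bi went from 6337, 8463 and 6770.2 to 4487, 4728 and 4528 in EcRi animals (-0.64 ± 0.11) and from 4381, 4873 and 5595 to 462, 462 and 451 in controls (-3.43 ± 0.11). Jon44E (-1.55 ± 0.37), Jon66Cii (-1.43 ± 0.30) and Jon65Ai (-0.71 ± 0.15) fell too, and for these the interaction was not called. The count of falling Jonah genes was 0 without EcRi -4 h replicate 2 and 7 without EcRi 0 h replicate 1. Of 7 measured lysozyme genes 4 fell in EcRi animals (median -0.64), LysB, LysC, LysD and LysE, whose sequences are close enough that their probe sets may share signal, and none was called without EcRi -4 h replicate 2, -4 h replicate 3 or 4 h replicate 3. In controls 6 fell. None of 10 trypsin genes (median -0.34) and none of 12 genes for amylases and maltases (median -0.19) was called in EcRi animals, where 7 of each group fell in controls.

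**Figure D4:**
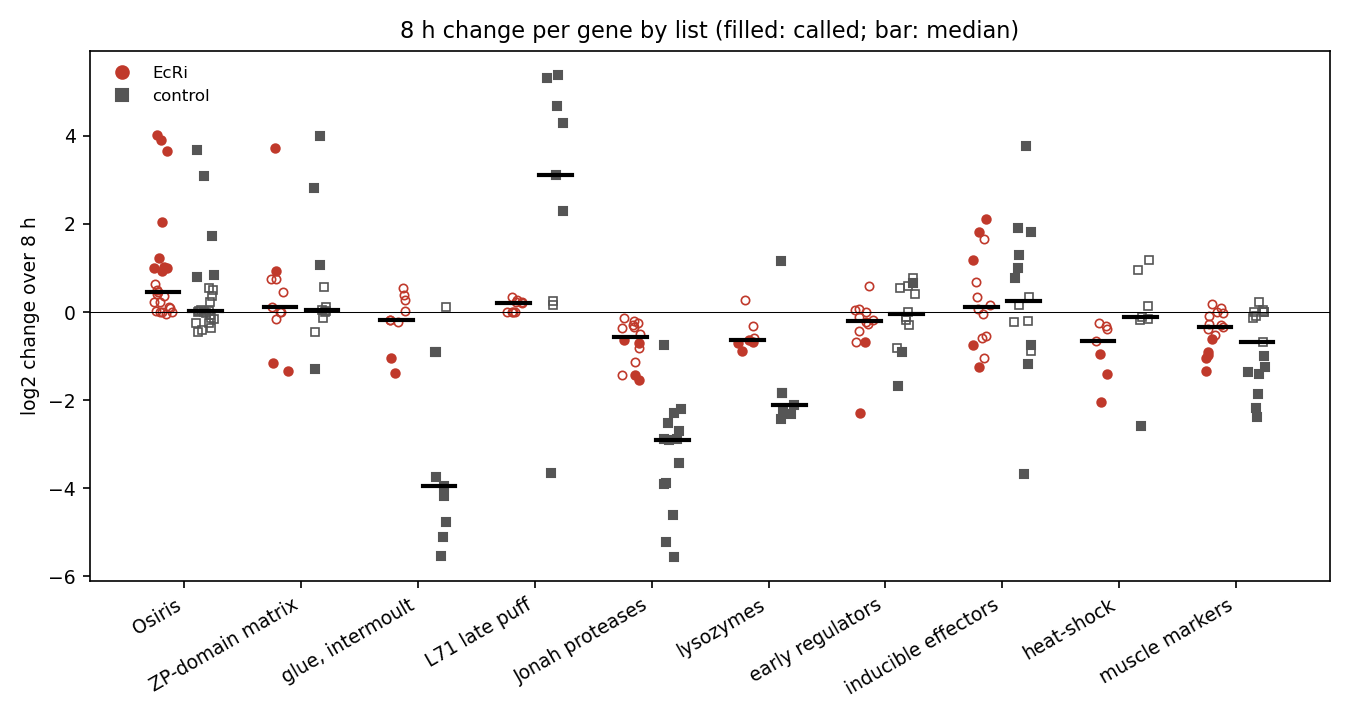
Log2 change over 8 h for each gene of 10 groups (the brightest probe set of a gene), in EcRi animals (red circles) and controls (grey squares); filled symbols were called, and the bars are medians. Osiris genes have medians of 0.45 in EcRi animals and 0.01 in controls, while glue, L71 and Jonah genes have medians of -0.17, 0.22 and -0.57 in EcRi animals and -3.95, 3.10 and -2.90 in controls.

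Of 20 measured nuclear receptor genes none was called in EcRi animals; Eip78C read between 102 and 129 on the 6 EcRi arrays and fell in controls from 667, 876 and 779 to 196, 214 and 207. Of 12 early regulators 2 fell and none rose, against 1.81% and 1.04% of all genes. Sox14, which encodes an HMG-box transcription factor, went from 1165, 1183 and 1176 to 605, 834 and 764 (-0.69 ± 0.11), and by -0.92 ± 0.11 in controls. The brightest probe set of br, which encodes the Broad zinc-finger factors, went from 944, 814 and 832 to 125, 291 and 148 (-2.29 ± 0.51, adjusted p = 0.030), and another fell by -0.79 ± 0.17, while the last read -0.07 ± 0.17 and was not called. The br call was lost without -4 h replicate 1, 4 h replicate 1 or 4 h replicate 3, and that of Sox14 without 4 h replicate 1.

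Of 14 measured genes listed as inducible by ecdysone 3 rose and 2 fell in EcRi animals, where 1.04% and 1.81% of all genes did. In controls 6 rose and 3 fell, against 4.3% and 4.74% of all genes. ImpL1 went from 1473, 1970.3 and 2219.7 to 5297, 6685 and 8141 (1.83 ± 0.30, adjusted p = 0.0053) and in controls from 805, 321 and 319 to 5794, 6245 and 5819.8 (3.77 ± 0.30). The strains thus met at 4 h, and the difference of the changes was -1.94 ± 0.42 (adjusted p = 0.019). Cyp18a1, whose enzyme inactivates ecdysteroids, was under the floor at -4 h and read 134, 421 and 159.8 at 4 h (1.19 ± 0.32), and rose in controls (1.90 ± 0.32). Edg78E, a pupal cuticle protein gene, went from 169, 155 and 150.5 to 364, 2706 and 329 (2.12 ± 0.57), a rise that, like that of Cyp18a1, was lost when any 1 of the -4 h arrays was left out. MsrA (-1.25 ± 0.22), a methionine sulfoxide reductase gene, and Cth (-0.75 ± 0.16), for cystathionine gamma-lyase, fell. ImpE2 and ImpE3 rose in controls only, and the interaction was called for both; in EcRi animals ImpE2 read -0.04 ± 0.17.

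Pepck1, which encodes a key enzyme of gluconeogenesis, and CG13856 were also followed by Northern blot in the study. Pepck1 rose from 2452, 3103 and 3237 to 5449, 6749.8 and 6288 in EcRi animals (1.08 ± 0.18, adjusted p = 0.0053) and by 1.64 ± 0.18 in controls. CG13856 rose from 176, 177 and 160.0 to 277, 462 and 375 (1.09 ± 0.16) and by 0.91 ± 0.16 in controls. CG5065 rose by 1.44 ± 0.23 and 2.05 ± 0.23. The groups were apart for all 3 genes, and none of the 3 interactions was called.

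Of 15 measured muscle markers 5 fell and none rose in EcRi animals (median -0.35), and 7 fell in controls (median -0.69), where 1.81% and 4.74% of all genes fell. Zasp66, for a Z-disc protein, went from 4638, 4470.4 and 4598 to 2602, 2009 and 2405 (-0.97 ± 0.08, adjusted p = 6.1e-05) and by -1.0 ± 0.08 in controls. Mf (-1.34 ± 0.32), Mlc1 (-1.04 ± 0.25), Mlc2 (-0.91 ± 0.18) and Tm2 (-0.60 ± 0.13) were the others, and the count was 2 without EcRi -4 h replicate 2 or 4 h replicate 1. The summed intensity of the muscle list lay between 22382 and 23339 at -4 h and between 15154 and 16592 at 4 h, and the part of muscle cells in other falls was not tested.

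Over all genes 2.85% were called in either direction, so that few calls would stand out in groups of this size. None of 37 cytoplasmic and none of 64 mitochondrial ribosomal protein genes was called, nor any of 39 proteasome subunits (median -0.38), and 1 of 63 genes of oxidative phosphorylation fell (median -0.28). Without EcRi 4 h replicate 2, however, 10 proteasome and 11 oxidative phosphorylation genes fell, and without EcRi 0 h replicate 1 the counts were 8 and 10. Of 81 cytochrome P450 genes 3 rose and 6 fell, against 1.04% and 1.81% of all genes. Cyp9f2 fell by -1.18 ± 0.20 on its brighter probe set. Cyp6d5 read -1.56 ± 0.41, and its call was lost in 5 of the 6 fits that left out 1 of the EcRi arrays compared. Of 58 cuticle protein genes of the Cpr family 3 rose and 4 fell. Neuron, imaginal disc, testis and cell cycle markers were not called, and the summed intensity of the neuron list was 2301 to 2341 at -4 h and 2417 to 2665 at 4 h.

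The EcRi changes lay mostly in the interval after pupariation. From -4 to 0 h no probe set was called by limma, and from 0 to 4 h 205 were called (1.47%), 96 higher (0.687%) and 109 lower (0.78%). In the earlier step 604 of 13966 had an unadjusted limma p under 0.05, no more than that limit would give without any change. Of the 356 calls over 8 h, 163 were called in the same direction from 0 to 4 h and 193 in neither step. Osi7 changed by 0.77 in the earlier step and 3.25 in the later one, and CG14852 by -0.75 and -1.90. CG3355 (1.59 and 0.86) and CG8087 (-1.52 and -0.86) changed more before pupariation, as did 21 of the 135 rises and 45 of the 221 falls. Both steps use the 0 h arrays and add up to the 8 h change, so neither is separate evidence of it. Without EcRi 0 h replicate 1 the later step had 459 calls, 80 higher and 379 lower, and the earlier one 0. Without the 2 arrays that stand apart and EcRi 4 h replicates 1 and 3, the earlier step had 39 calls, 34 higher and 5 lower, of which 22 were calls over 8 h in the same direction.

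The number of calls, and its split by direction, depended on single arrays. Without EcRi 4 h replicate 2 there were 960 calls, 177 higher and 783 lower, and without replicate 1 there were 250, 143 higher and 107 lower. Without the 2 arrays that stand apart the fit gave 1010 calls, which included each of the 356. When EcRi 4 h replicates 1 and 3 were left out as well, 555 were called, 390 higher and 165 lower, with the lone array at 4 h assumed to vary like the other groups. A fit to the 6 EcRi arrays alone gave 184 calls. Replicate 2 was the highest of the 3 arrays at 4 h for 80.7% of the rises and 62.9% of the falls, and for 44.1% of all 12026 probe sets above the floor on any of them.

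Leaving out each of the 6 EcRi arrays in turn, then the 2 arrays and the 4 arrays, 165 of the 356 probe sets kept their call throughout, 85 of the rises (63.0%) and 80 of the falls (36.2%). They include Osi7, Osi15, Osi6, dy, BomS5, CG9083, TwdlT and Pepck1 among the rises, and CG14258, CG14852, Lcp9, Acbp5, Hsp68, Hsp27, CG7906 and ng3 among the falls. The fit to the 6 EcRi arrays alone was not among these settings. It kept 153 of the 356 calls, and CG9083, TwdlT, Hsp68 and CG7906 were not called in it. Among the 122 probe sets named by rule, 46 lost their call in that fit. CG4998, CG12164, CG1607, yellow-d2, br, Sox14, Edg78E, Cth, Cyp6d5, Cht4, Cpr12A, pio and the called Jonah and lysozyme genes do not belong to the 165.

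**Figure D5:**
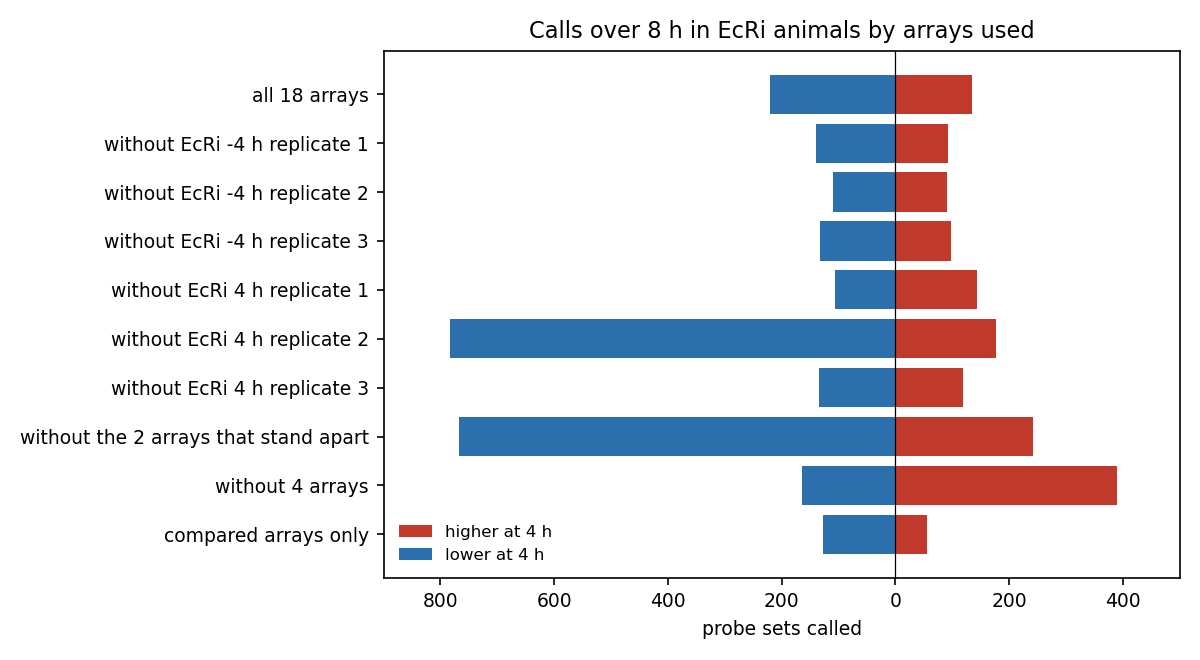
Probe sets called over 8 h in EcRi animals, higher at 4 h to the right and lower to the left, with all 18 arrays and with arrays left out; the 2 arrays that stand apart are replicate 1 of controls at -4 h and replicate 1 of EcRi at 0 h, the 4 arrays are these and EcRi 4 h replicates 1 and 3, and the last bar fits the 6 EcRi arrays alone. Falls number 783 without EcRi 4 h replicate 2 and 107 without replicate 1, and rises range from 56 to 390.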

How the data were processed

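Each RNA sample of whole animals was hybridised to its own Affymetrix array of the Drosophila genome, with 3 arrays in each group. The authors normalized the arrays and summarised the probes of each probe set with dChip, and the deposited values are intensity on a linear scale, with no count or depth. The number of arrays limits the precision. Values were raised to a floor at the 20th percentile (91.6) and log2 transformed. Using limma 3.58.1 (R 4.3.3), group means were fitted over the 18 arrays together, and moderated tests were adjusted by the Benjamini-Hochberg method. SE comes from this fit, and ± in the text is SE. The comparisons were EcRi 4 h minus EcRi -4 h, the same in controls, their difference (the interaction) and both steps of the EcRi course. The fit was tested on simulated data with known changes. The simulated noise was independent and equal in all groups, so that test does not cover the uneven arrays of these data. The thresholds follow the study's methods, and SAM, which the authors used, was run as an alternative.

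Gene names came from the platform annotation: 12442 probe sets had 1 symbol, 327 several and 1197 none, and probe sets without 1 symbol are not named. Groups of genes were counted on the brightest probe set of each of 10843 genes. Genes were named by rule: EcR, the 15 largest called rises and falls in EcRi animals with groups apart, the 8 largest shared and the 8 largest with a called interaction in each direction, up to 5 called genes of each group, and Pepck1, CG5065 and CG13856. Members of opposite direction and genes of flat groups were added after their values were seen. The comparison and the gene groups were chosen with earlier results of these data known. Replicate numbers were not treated as pairs: same-numbered EcRi arrays of -4 and 4 h deviated from their group means with correlations of -0.20, -0.18 and 0.09.

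Alternatives changed the floor, the scaling, the filter on dim probe sets, the variance model, the arrays, the thresholds and the number of probe sets per gene.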

Additional observations from a re-analysis of the deposited data

Results flagged for a closer look

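The 8 h change differed between EcRi and control animals, by the test of the interaction in limma, for 882 probe sets. The values that follow are the EcRi change minus the control change on the log2 scale, for the genes named by rule. A positive value means a larger rise or a smaller fall in EcRi animals.

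Among genes of the cuticle and its matrix these were TwdlT (2.33), Osi6 (1.92), Cpr67B (1.18), dyl (0.82), Cpr12A (-2.55) and Cht4 (-3.35). Among glands and gut they were Eig71Ee (3.98), which fell in controls, Eig71Ea (-4.42), which rose there, Jon25Bi (2.79), mag (2.67), LysD (1.62), LysE (1.60), LysC (1.55) and LysB (1.47). The immune genes were BomS5 (2.30), PGRP-SC2 (1.23) and Spn43Aa (-1.60).

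Enzyme, mitochondrial and detoxification genes were Cyp9f2 (1.81), Cyp6a17 (1.58), Ugt301D1 (1.57), mRpS9 (-0.62), ND-39 (-0.71), LManIII (-1.47), mRpL33 (-1.54), Acbp5 (-1.56) and Hex-A (-2.09). The heat-shock genes were l(2)efl (1.2), Hsp27 (-0.77) and Hsp68 (-3.01). EcR itself was among them by its dimmer probe set (0.87), with Ndg (1.48), Debcl (-1.57) and 1 of 2 probe sets of Usp14 (1.48).

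The remaining genes were CG9083 (3.00), CG4998 (2.82), ImpL1 (-1.94), yellow-d2 (-1.82), CG12164 (2.18), CG15080 (2.03), CG4115 (1.92), CG12964 (1.27), CG7755 (1.24), CG31075 (-1.0), CG8087 (-1.26), CG7296 (-1.76), CG14687 (-2.23), 1 of 2 probe sets of CG1607 (-2.25), CG7906 (-2.74) and CG3355 (-3.02).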

How the results depend on the processing

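With 3 arrays a group, single arrays moved the counts of calls, and values near the floor have no order. Each array left out in turn gave 201 to 960 calls in EcRi animals, 91 to 177 higher and 107 to 783 lower, 923 to 1562 in controls, 455 to 2360 for the interaction and 124 to 262 called the same way in both strains. EcRi calls were fewest without EcRi -4 h replicate 2 and most without EcRi 4 h replicate 2, and interaction calls were fewest without control 4 h replicate 1 and most without EcRi 0 h replicate 1. A fit to the compared arrays alone gave 184 EcRi calls, 56 higher and 128 lower, and 100 shared. Leaving out the 2 arrays that stand apart gave 1010, 242 higher and 768 lower, with 1598 interactions and 314 shared. Without the 4 arrays there were 555, 390 of them higher, and 304 shared. Array weights gave 1461, 363 higher and 1098 lower, with 2623 interactions and 339 shared, and SAM gave 1064, 215 higher and 849 lower, and 1822 in controls. The cause of these shifts was not tested.

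An adjusted p under 0.05 left 145 falls in EcRi animals and 520 interactions. A limit of 2-fold left 172 EcRi calls, 81 higher and 91 lower, 645 in controls, 549 interactions and 92 shared. No fold limit gave 596, 205 higher and 391 lower, 2018 in controls and 300 shared. These follow from the thresholds themselves. Aligning the array medians gave 1217 interactions, 408 higher and 809 lower in EcRi animals, against 386 and 496. The replicate number as a block, with numbers that do not pair the arrays, gave 337 EcRi calls, 127 higher and 210 lower. The other floors, quantile normalization, the filter on dim probe sets, the variance trend and 1 probe set per gene kept the counts within 1.5 times.

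Of the named genes 4 changed sign under an alternative, and none of them was called. The dimmer EcR probe set read -0.092 without the 4 arrays and -0.036 to 0.067 with single arrays left out, and was below 0 without EcRi -4 h replicate 1, 4 h replicate 1 or 4 h replicate 3. Without the 4 arrays Debcl read 0.26, 1 probe set of apolpp 0.17 and RpS29 0.19.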

Other observations

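EcRi 4 h replicate 2 read far above the other arrays of its group for several cuticle protein genes, which were picked out after their values were seen. Edg84A read 162, 162 and 174 at -4 h and 265, 2301 and 232 at 4 h, Edg91 read 166, 1844 and 143 at 4 h, and Lcp65Ad read 637, 3415 and 431 at 4 h. None of the 3 was called over 8 h (1.65 ± 0.62, 0.69 ± 0.69 and 1.42 ± 0.54). In controls Edg84A stood at 574, 544 and 551 at 4 h, and Edg91 and Lcp65Ad did not rise. The summed intensity of 6 tracheal markers at 4 h was likewise 19502 on replicate 2 and 9997 and 10109 on replicates 1 and 3, against 8267 to 9003 at -4 h.

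Of 15 measured genes of haemocytes and melanisation 3 fell in EcRi animals and none rose (median -0.45), where 1.81% and 1.04% of all genes did. PPO2, a prophenoloxidase gene of crystal cells, read 3424, 3937 and 2642 at -4 h and 1753, 2622 and 1844 at 4 h (-0.69 ± 0.19), and in controls 457, 575 and 613 and then 185, 197 and 201. Each EcRi array at either time was thus above each control array. A dimmer probe set of PPO2 read 0.07 ± 0.27 and was not called. NimC2 (-0.64 ± 0.14) and PPO3 (-0.59 ± 0.16) were the others, and all 3 calls were lost when some single EcRi arrays were left out.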
